A study of Mus musculus with 26 samples.

Results

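Expression of 10 genes of RNA handling was examined in mouse brown adipose tissue (BAT): the cold-inducible RNA-binding proteins Cirbp and Rbm3, the kinases Clk1 and Clk4, the splicing factors Srsf2, Srsf3, Srsf5 and Srsf7, and the splicing activators Tra2a and Tra2b. They were found by gene symbol among the 50686 genes of a read count table. In GRCm38, Cirbp (ENSMUSG00000045193) lies at chr10:80165985-80172786, Rbm3 (ENSMUSG00000031167) at chrX:8138975-8145880 and Clk4 (ENSMUSG00000020385) at chr11:51261730-51281766. All 10 genes were matched, and all 10 were among the 17286 genes that passed the filter on low counts. The study asked how loss of Afadin, a junctional scaffold protein encoded by Afdn (also called Mllt4), affects BAT in the cold. Total RNA of BAT, named supraclavicular in the labels, was sequenced from 26 male C57BL/6J mice aged 12 to 16 weeks, 1 library per mouse. The controls (labelled WT) were littermates of fat-specific Afadin knockout mice (labelled KO), in which a floxed Afdn allele was combined with Cre driven by the Adiponectin promoter. That promoter acts in white as well as brown adipocytes, and the other cells of the tissue keep the gene. Every mouse spent 2 weeks at thermoneutrality, given as 30 °C in the labels and as 29 °C in the methods. The groups WT30 and KO30 were taken from there, with 7 mice each, and the groups WT5 (5 mice) and KO5 (7 mice) after a further 6 h at 5 °C.

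Cirbp and Rbm3 are small glycine-rich proteins with a single RNA recognition motif. Both are known for induction when cultured cells or tissues are mildly cooled, and both bind many transcripts. SR proteins such as Srsf2, Srsf3, Srsf5 and Srsf7 bind exons and recruit the spliceosome, and Tra2a and Tra2b are SR-like activators of exon inclusion. Clk1 and Clk4 phosphorylate SR proteins in the nucleus. Many transcripts of these families carry poison exons, which send the RNA to nonsense-mediated decay, or introns that stay in the nuclear RNA until they are spliced. Gencode annotates at least 1 nonsense-mediated decay transcript and at least 1 retained-intron transcript for all 10 genes, against 21.7% of the 13662 tested protein-coding genes that have both. Counts per gene add all such forms together, so none of the values below separates a productive transcript from an unproductive form.

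Promoter sequences are shown first for the members called in control mice that had a promoter window (Rbm3 had none), because 2 of them, Clk4 and Tra2a, share the letters of a cAMP response element, a DNA element bound by factors that answer to cAMP. RefSeq windows of the 250 bases before a transcription start (GRCm38.p6) were matched for 8 of the 10 members. The stretches below are the longest part of each window that holds no annotated exon. A second window of Cirbp, which held none of the 3 motifs searched, is not printed. They are written 5′ to 3′ on the strand of the gene, and capitals mark a motif.
Clk4, chr11:51263047-51263113, plus strand: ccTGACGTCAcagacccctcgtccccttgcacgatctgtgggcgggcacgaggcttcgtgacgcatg
Tra2a, chr6:49264053-49264302, minus strand: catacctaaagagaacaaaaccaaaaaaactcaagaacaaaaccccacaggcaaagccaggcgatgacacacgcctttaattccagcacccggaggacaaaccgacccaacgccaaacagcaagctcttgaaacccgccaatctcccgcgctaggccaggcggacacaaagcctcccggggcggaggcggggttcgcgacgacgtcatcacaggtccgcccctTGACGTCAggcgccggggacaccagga
Tra2b, chr16:22266006-22266255, minus strand: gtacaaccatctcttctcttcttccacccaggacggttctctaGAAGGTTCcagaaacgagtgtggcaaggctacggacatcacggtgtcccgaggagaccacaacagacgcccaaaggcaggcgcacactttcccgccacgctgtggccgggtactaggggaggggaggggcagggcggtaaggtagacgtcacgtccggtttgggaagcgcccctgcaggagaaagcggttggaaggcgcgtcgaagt
Cirbp, chr10:80167589-80167777, plus strand: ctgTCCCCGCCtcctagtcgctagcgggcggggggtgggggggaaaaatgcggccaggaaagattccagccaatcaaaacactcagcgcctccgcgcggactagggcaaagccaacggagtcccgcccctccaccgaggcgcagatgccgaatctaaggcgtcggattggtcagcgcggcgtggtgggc
Srsf7, chr17:80207308-80207459, minus strand: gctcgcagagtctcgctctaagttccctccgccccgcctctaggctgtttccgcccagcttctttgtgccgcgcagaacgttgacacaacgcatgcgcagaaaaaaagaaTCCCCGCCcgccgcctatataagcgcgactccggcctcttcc

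The letters TGACGTCA (cAMP response element) occurred in the windows of Clk4, 65 to 58 bases before the start, and Tra2a, 27 to 20 bases before it. They occurred in 1.55% of all 32851 windows searched. The letters TCCCCGCC, a mild-cold response element described for Cirbp, occurred in the windows of Cirbp, 247 to 240 bases before the start, and Srsf7, 44 to 37 bases before it, and in 4.64% of all windows. The heat shock element letters GAANNTTC occurred in the window of Tra2b, 207 to 200 bases before the start, and in 6.69% of all windows. The cAMP response element letters were thus in 2 of the 8 members with a window. Srsf2, Srsf3 and Srsf5, which were not called in control mice, also had windows, and these held none of the motifs. Both strands were searched, and no motif overlapped another. The member windows with a motif held 58.8% (Tra2a) to 65.6% (Cirbp) G and C, against a median of 52.4% over all windows. The shares over all windows are not matched for this. The motifs were picked with the results known. A match of letters is a description and does not show that a factor was bound there.

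Library totals ran from 12705969 to 25732258 counts per mouse, and every member had at least 64 counts in every library. The 10 brown adipocyte markers were all detected, and their summed level was 7490 to 8824 CPM (read counts scaled by the normalised library size) in WT30 and 28240 to 30950 CPM in WT5; 5 of them were called higher and 2 lower in the cold in controls, and Ucp1 alone went from a median of 1004 to 15960 CPM. Other summed markers also shifted without overlap in controls. Those of endothelial cells went from 420.6 to 527.7 CPM in WT30 to 689.9 to 787.7 CPM in WT5 (of 5 markers, 3 called higher and 2 lower). Those of Schwann cells went from 48.96 to 61.95 CPM to 23.91 to 38.88 CPM (of 4, 0 higher and 1 lower). Those of lymphocytes went from 2.431 to 5.759 CPM to 0.771 to 1.267 CPM (of 5, 0 higher and 2 lower). In KO mice the summed macrophage markers went from 130.4 to 170.5 CPM in KO30 to 175.8 to 229.2 CPM in KO5, without overlap. Those of neutrophils went from 1.455 to 3.645 CPM to 4.183 to 51.85 CPM. Those of Schwann cells went from 44.78 to 52.89 CPM to 25.22 to 41.94 CPM. Endothelial and lymphocyte sums overlapped in KO mice, and macrophage and neutrophil sums overlapped in controls. The part of these cells in the results below was not tested. Ucp1, the uncoupling protein of brown fat, was higher in the cold by 4.02 on the log2 scale (SE 0.164, edgeR adjusted p = 5.85e-17). Afdn itself did not separate the genotypes at thermoneutrality: the log2 difference, KO minus control, was -0.01 (SE 0.0798, edgeR adjusted p = 0.992). At 5 °C its difference was -0.33 (SE 0.0878, edgeR adjusted p = 0.116), with 53.3 to 65.3 CPM in KO5 and 67.9 to 79.2 CPM in WT5. A count over the whole gene need not fall when only some exons are deleted, so Afdn does not check the labels here, and the genotypes are named by their labels throughout. Libraries of 3 mice stood apart in the share of mitochondrial counts or the normalisation factor: control mouse 7 at thermoneutrality (14.3% mitochondrial counts against a group median of 37.2%, factor 1.29) and mice 24 and 25 of KO5 (factors 0.769 and 0.759). Groups differed too, with median mitochondrial shares of 37.2% in WT30, 28.3% in KO30, 27.6% in WT5 and 28% in KO5. Factors ran from 0.934 to 1.29 in WT30, 0.995 to 1.24 in KO30, 0.88 to 0.987 in WT5 and 0.759 to 1.01 in KO5. KO5 mouse 28, at 19.2% mitochondrial counts, was not among the 3. The summed level of 6 skeletal muscle markers was 5192 CPM in control mouse 7, 3567 in KO5 mouse 24 and 7069 in KO5 mouse 25. It was also 4566 in WT5 mouse 16, and the lowest library of all had 28.1 CPM. For the members, each call that changed without control mouse 7 and KO5 mice 24 and 25 is given both ways. So are the KO5 ranges of the ratios and the correlations between members named below. Other values that changed without these 3 mice are not all given. The part of muscle in these changes was not tested.

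Some members rose and others fell after cold exposure. In control mice Rbm3, Clk4, Tra2a and Tra2b rose (4 of 10) and Cirbp and Srsf7 fell (2 of 10). The same test called 31.6% of all genes higher and 33.4% lower, so a count of 6 of 10 lay near the background. In KO mice Rbm3, Clk4 and Srsf3 rose (3 of 10) and Cirbp fell (1 of 10), against 33.7% and 34.9% of all genes. The median log2 fold change of the 10 members was 0.19 in control and 0.15 in KO mice (all genes, -0.01 and -0.03). Cirbp, Rbm3 and Clk4 did not overlap between WT30 and WT5, as was the case for 46.4% of all genes. Rbm3 and Clk4 did not overlap between KO30 and KO5, as for 40.4% of all genes.

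**Figure D1:**
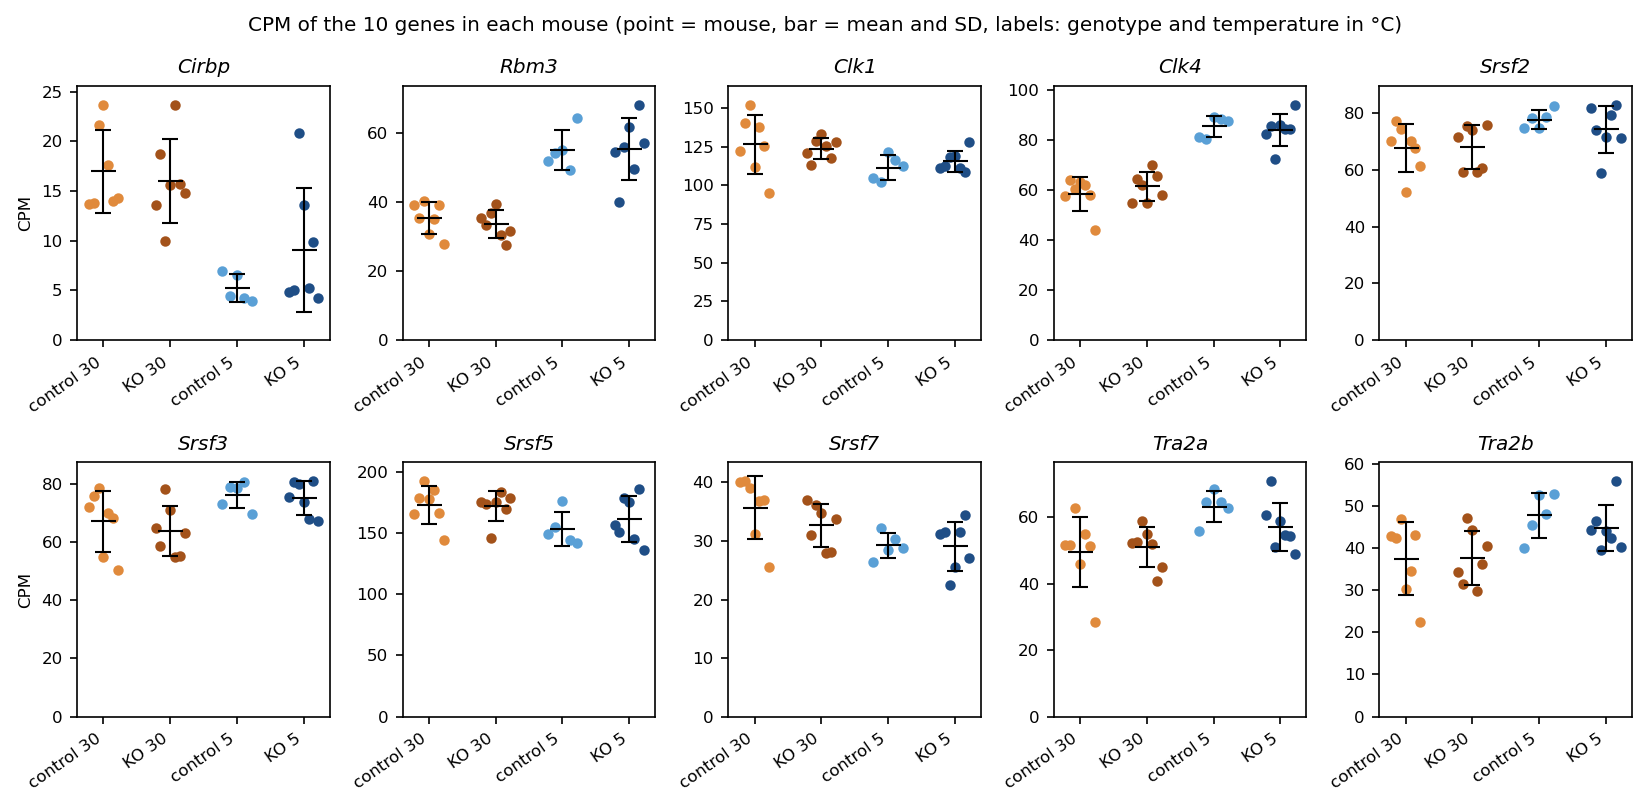
CPM of each of the 10 genes (vertical axis, starting at 0, scaled separately per gene) in every mouse, by genotype and temperature in °C. Points are mice, and the bars give the mean and SD. Rbm3 and Clk4 lie higher in both cold groups, and Cirbp lies lower in all 5 cold control mice but spreads from 4.24 to 20.8 CPM in the KO mice in the cold.

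Cirbp, whose protein takes its name from cold induction, fell after cold exposure. In WT30 its lowest, median and highest levels were 13.7, 14.4 and 23.7 CPM. In WT5 the 5 mice had 7.00, 4.46, 6.57, 4.26 and 3.92 CPM. Every cold control mouse lay below every control mouse at thermoneutrality. The log2 fold change was -1.69 (SE 0.326, 95% interval -2.36 to -1.02, edgeR adjusted p = 5.63e-05), which left 0.31 times the level. In bulk tissue, fewer cells that express a gene and less of its RNA per cell cannot be told apart.

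The KO mice gave a more scattered picture for Cirbp. In KO30 the lowest, median and highest values were 10.0, 15.6 and 23.6 CPM, and in KO5 they were 4.24, 5.24 and 20.8 CPM. Of the 7 KO5 mice, 4 lay at or below 5.24 CPM, while mouse 24 had 20.8, mouse 25 had 13.6 and mouse 27 had 9.84 CPM, so the groups overlapped. The log2 fold change was -0.83 (SE 0.28, 95% interval -1.40 to -0.25, edgeR adjusted p = 0.011). Mice 24 and 25 are those with the lowest normalisation factors. Without them and control mouse 7, KO5 ran from 4.24 to 9.84 CPM and the log2 fold change was -1.45 (SE 0.226, edgeR adjusted p = 4.47e-06).

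Rbm3, the closest relative of Cirbp among the members, moved the other way. Its lowest, median and highest levels were 27.8, 35.5 and 40.4 CPM in WT30. The 5 mice of WT5 had 51.8, 54.3, 55.1, 49.3 and 64.4 CPM. No cold control mouse came down to the highest value at thermoneutrality, and the log2 fold change was 0.64 (SE 0.11, 95% interval 0.41 to 0.86, edgeR adjusted p = 1.26e-05). In KO30 the values were 27.6, 33.3 and 39.4 CPM, and in KO5 40.0, 55.9 and 68.2 CPM. The groups again did not overlap, though KO5 mouse 23 at 40.0 CPM lay just above the highest KO30 mouse, and the log2 fold change was 0.72 (SE 0.101, edgeR adjusted p = 5.29e-07). Phospho2, a protein-coding gene with 290 to 880 counts per mouse, has 380 bases that are 97.4% identical to Rbm3, so reads from that stretch may have been divided or dropped. Rbm3-ps, a processed pseudogene, is 99.4% identical over 465 bases and had 0 to 5 counts. Srsf3, Srsf5 and Tra2b also have near-copies (at least 95% identical over at least 200 bases), with at most 10, 13 and 13 counts. Few counts on a copy do not show that the member lost no reads.

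The ratio of Rbm3 to Cirbp within a mouse therefore shifted, as these genes moved in opposite directions. The log2 ratio had a median of 0.99 in WT30 (0.37 to 1.51) and 3.50 in WT5 (2.87 to 4.00). In KO30 it had a median of 1.09 (0.37 to 1.87) and in KO5 of 2.97 (1.42 to 3.72). The ranges did not overlap in the controls and overlapped in the KO mice, where KO5 mouse 24 was the lowest. KO5 ran from 2.78 to 3.72, clear of KO30, without the 3 mice that stood apart.

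**Figure D2:**
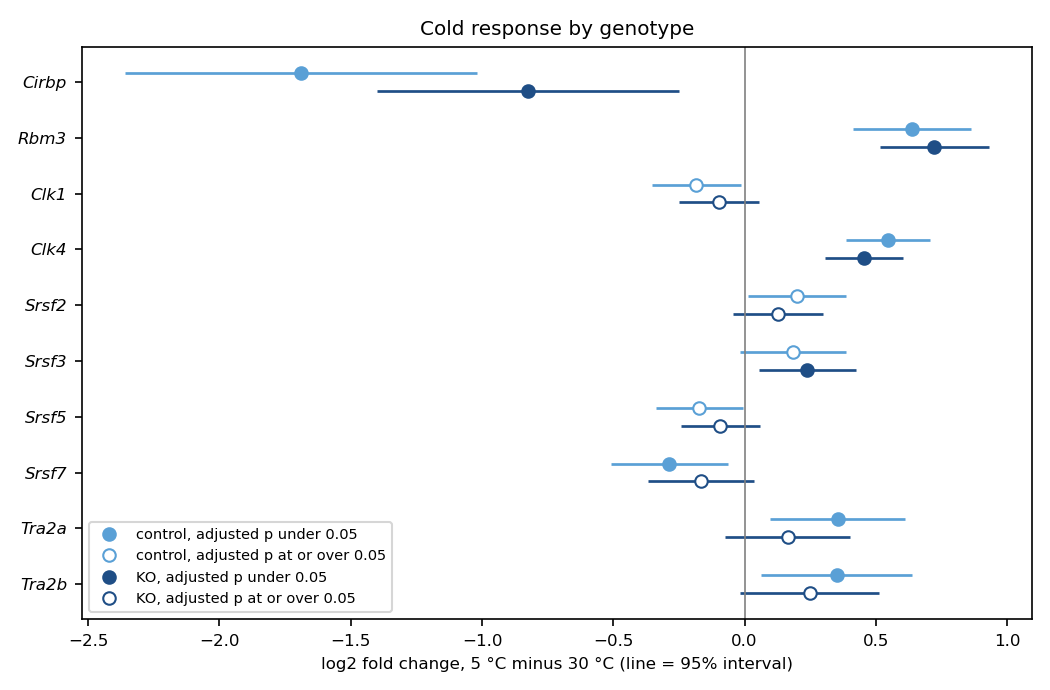
Log2 fold change (horizontal axis, 5 °C minus thermoneutrality) of each gene in control mice (light blue, upper) and KO mice (dark blue, lower), with 95% intervals; filled points have an adjusted p under 0.05. Cirbp lies at -1.69 and -0.83, while Rbm3 and Clk4 lie above 0 in both genotypes.

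Of the Clk kinases, Clk4 rose in the cold and Clk1 did not pass the test. Clk4 had 44.1, 60.5 and 64.0 CPM (lowest, median, highest) in WT30, while the 5 mice of WT5 had 81.4, 80.6, 89.4, 88.6 and 87.8 CPM. Every cold control mouse lay well above the highest control mouse at thermoneutrality, and the log2 fold change was 0.55 (SE 0.0779, 95% interval 0.39 to 0.71, edgeR adjusted p = 7.66e-07). In KO30 the values were 55.0, 61.98 and 70.1 CPM, and in KO5 72.5, 84.3 and 94.1 CPM, also without overlap. The log2 fold change in KO mice was 0.45 (SE 0.0718, edgeR adjusted p = 3.35e-06).

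Clk1, which stood above Clk4 at thermoneutrality, did not share this rise. Its levels were 94.96, 126 and 152 CPM in WT30, and 104, 102, 121, 117 and 112 CPM in the 5 mice of WT5. The groups overlapped, and the log2 fold change of -0.18 (SE 0.0816, 95% interval -0.35 to -0.02) missed the threshold with an edgeR adjusted p of 0.0513. Without the 3 mice that stood apart it was -0.24 with an edgeR adjusted p of 0.00382. In KO mice it was -0.10 (SE 0.0742, edgeR adjusted p = 0.24), with KO30 at 113, 125 and 133 CPM and KO5 at 109, 112 and 128 CPM. Clk1 was called lower in controls by DESeq2 (adjusted p = 0.0475) and by the revised quasi-likelihood test of edgeR (adjusted p = 0.0476). It was called lower in KO mice in the edgeR test by library size alone (adjusted p = 0.000141), with at least 10 counts in every mouse (0.0403) and in a fit on only the groups compared (0.0256). By library size alone the median of all genes in KO mice was itself -0.344, and Clk1 lay at -0.0709 relative to it.

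The log2 ratio of Clk1 to Clk4 had a median of 1.12 in WT30 (0.82 to 1.33) and 0.36 in WT5 (0.34 to 0.44). It had a median of 1.06 in KO30 (0.81 to 1.27) and 0.44 in KO5 (0.37 to 0.70). In each genotype every cold mouse lay below every mouse at thermoneutrality. KO5 ran from 0.37 to 0.44 without the 3 mice. The ratios of pairs chosen among the members, here and elsewhere in the text, are descriptions and carry no test. Of all single genes, 46.4% did not overlap between WT30 and WT5, and 40.4% between KO30 and KO5. No such share was computed for pairs. On the scale of CPM per kilobase of annotated exon, Clk1 stood at 15.5 and Clk4 at 10.4 (medians) in WT30, and Clk4 at 15.2 and Clk1 at 13.8 in WT5, where their ranges overlapped.

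**Figure D3:**
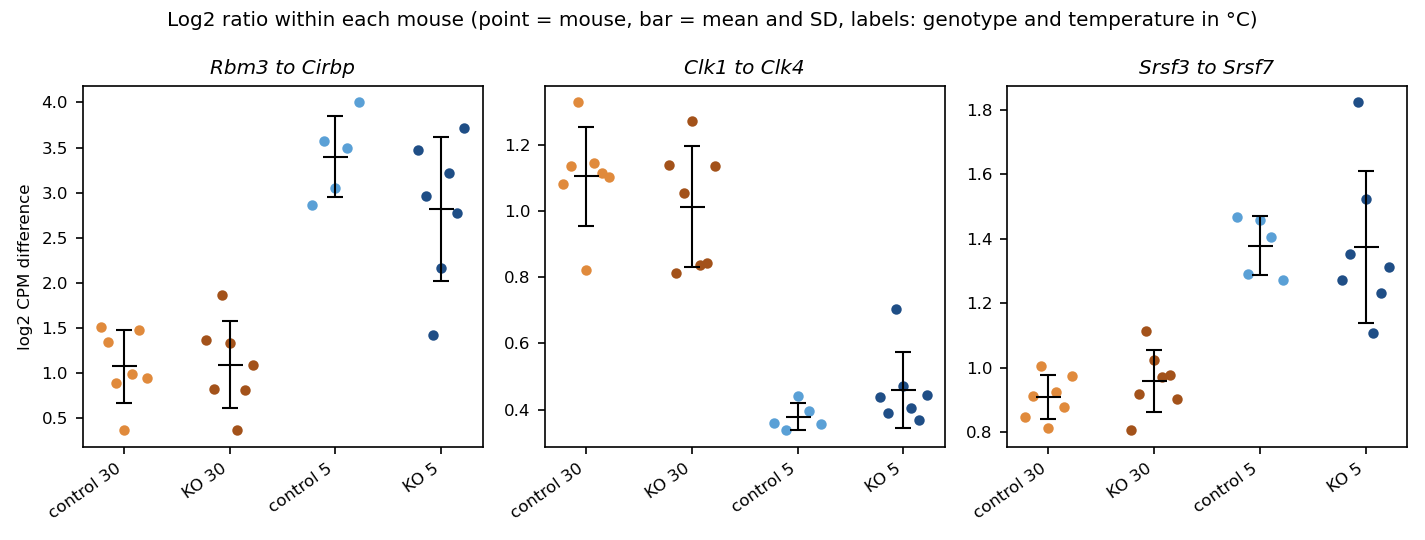
Log2 ratio between the levels of 2 genes within each mouse (vertical axis, difference of log2 CPM), for Rbm3 to Cirbp, Clk1 to Clk4 and Srsf3 to Srsf7, by genotype and temperature in °C. Points are mice, and the bars give the mean and SD. Clk1 to Clk4 falls from medians of 1.12 and 1.06 at thermoneutrality to 0.36 and 0.44 in the cold.

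Of the 4 SR protein members, Srsf7 passed the test in control mice and Srsf3 in KO mice. Srsf7, which also binds the RNA export machinery, had 25.6, 37.0 and 40.2 CPM in WT30 and 26.3, 32.2, 28.5, 30.4 and 28.8 CPM in WT5. It fell in control mice by 0.29 on the log2 scale (SE 0.108, 95% interval -0.51 to -0.06, edgeR adjusted p = 0.0223), although control mouse 7 at thermoneutrality lay below all cold control mice. In KO mice the value was -0.17 (SE 0.0984, edgeR adjusted p = 0.138), with KO30 at 27.9, 33.8 and 37.0 CPM and KO5 at 22.5, 31.2 and 34.4 CPM.

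Srsf3, which like Srsf7 is a small SR protein with a role in RNA export, leaned the other way. It had 50.4, 69.9 and 78.5 CPM in WT30 and 73.1, 78.9, 78.5, 80.7 and 69.7 CPM in WT5. The log2 fold change in controls was 0.18 (SE 0.0981, 95% interval -0.02 to 0.39, edgeR adjusted p = 0.103). In KO mice Srsf3 rose by 0.24 (SE 0.0899, 95% interval 0.05 to 0.42, edgeR adjusted p = 0.0212), from 54.9, 63.3 and 78.4 CPM to 67.3, 75.6 and 80.9 CPM. With at least 10 counts in every mouse the KO value was 0.18 and missed the threshold (edgeR adjusted p = 0.0665), by library size alone it was -0.07 (edgeR adjusted p = 0.472), and the call was lost in 5 of 26 fits that left out a mouse. The groups overlapped in both genotypes. The log2 ratio of Srsf3 to Srsf7 was 0.81 to 1.00 in WT30 and 1.27 to 1.47 in WT5, without overlap, and 0.81 to 1.11 in KO30 against 1.11 to 1.82 in KO5, where the ranges just overlapped. KO5 ran from 1.11 to 1.35 without the 3 mice.

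Srsf5 and Srsf2 did not pass the test in either genotype. Srsf5, an SR protein known to respond to insulin and growth signals, had 144, 178 and 192 CPM in WT30 and 149, 155, 176, 145 and 142 CPM in WT5, for a log2 fold change of -0.17 (SE 0.0804, edgeR adjusted p = 0.0631). Without the 3 mice that stood apart it was -0.21 with an edgeR adjusted p of 0.0156. In KO mice it was -0.09 (SE 0.0732, edgeR adjusted p = 0.263).

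Srsf2, which remains in the nucleus and binds exonic enhancers, had 52.2, 70.1 and 77.3 CPM in WT30 and 74.6, 78.2, 74.8, 78.7 and 82.3 CPM in WT5. Its log2 fold change was 0.20 (SE 0.0913, edgeR adjusted p = 0.0565) in controls and 0.13 (SE 0.0837, edgeR adjusted p = 0.183) in KO mice. Without the 3 mice that stood apart the KO value was 0.19 with an edgeR adjusted p of 0.042. Srsf2 shares 460 exon bases with Mettl23 and 288 with Mfsd11, both on the opposite strand. The strand setting of the counting is not given in the sources used here. In control mice neither neighbour passed the test, at -0.07 for Mettl23 (SE 0.0781, edgeR adjusted p = 0.421) and -0.18 for Mfsd11 (SE 0.138, edgeR adjusted p = 0.257).

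Tra2a and Tra2b, which are related activators of exon inclusion, both passed the test in control mice, close to the threshold. Tra2a had 28.4, 51.5 and 62.8 CPM in WT30 and 55.7, 64.4, 68.4, 64.6 and 62.7 CPM in WT5. The log2 fold change was 0.35 (SE 0.125, 95% interval 0.10 to 0.61, edgeR adjusted p = 0.0155). Tra2b had 22.4, 42.4 and 46.8 CPM in WT30 and 40.1, 45.5, 52.5, 48.0 and 52.8 CPM in WT5, with a log2 fold change of 0.35 (SE 0.14, 95% interval 0.06 to 0.64, edgeR adjusted p = 0.0304). For both, the groups overlapped, and the lowest value of WT30 was that of mouse 7. Without the 3 mice that stood apart, Tra2b was at 0.26 with an edgeR adjusted p of 0.0654. Both calls were lost by library size alone (edgeR adjusted p = 0.0741 for Tra2a and 0.0958 for Tra2b) and in a fit on only the groups compared (0.0607 and 0.08).

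In KO mice neither gene passed the test. Tra2a had 40.9, 52.2 and 58.7 CPM in KO30 and 48.9, 54.5 and 70.7 CPM in KO5, a log2 fold change of 0.16 (SE 0.115, edgeR adjusted p = 0.209). Tra2b had 29.9, 36.2 and 47.1 CPM in KO30 and 39.5, 44.1 and 55.8 CPM in KO5, a log2 fold change of 0.25 (SE 0.129, edgeR adjusted p = 0.0897). Without the 3 mice that stood apart Tra2b was at 0.28 with an edgeR adjusted p of 0.0357. The log2 ratio of Tra2a to Tra2b was 0.25 to 0.67 in WT30 and 0.25 to 0.50 in WT5. It was 0.15 to 0.79 in KO30 and -0.04 to 0.61 in KO5, a KO5 range that was the same without the 3 mice. The ranges overlapped in both genotypes. Whether the genotypes differ in the cold responses of Tra2a and Tra2b is a separate test, given next.

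No member passed the test between the genotypes. At thermoneutrality 0 of 10 members passed the edgeR test, and 0 had an unadjusted p under 0.05 (all genes, 14 called or 0.081%, and 1322 at the unadjusted p). Leaving out a mouse at a time moved the 14 to between 7 (without WT30 mouse 2) and 93 (without WT30 mouse 7), and DESeq2 called 48. The log2 differences, KO minus control, ran from -0.13 for Srsf7 (95% interval -0.33 to 0.07) to 0.07 for Clk4 (95% interval -0.08 to 0.22). For Cirbp the difference was -0.08 (95% interval -0.64 to 0.48) and for Rbm3 -0.08 (95% interval -0.29 to 0.13). The intervals bound the difference more tightly for Clk4 than for Cirbp, which varied most between mice.

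At 5 °C 0 of 10 members passed the edgeR test and 1, Cirbp, had an unadjusted p under 0.05 (all genes, 24 called or 0.139%, and 2323 at the unadjusted p). The 24 moved to between 7 (without WT5 mouse 19) and 100 (without KO5 mouse 22), and to 197 in DESeq2. Cirbp was 0.78 higher in KO on the log2 scale (SE 0.323, 95% interval 0.12 to 1.45, edgeR adjusted p = 0.288). Without the 3 mice that stood apart the difference was 0.15 (SE 0.249, edgeR adjusted p = 0.828). For Rbm3 the difference was 0.01 (95% interval -0.22 to 0.23). The lowest value was that of Tra2a, at -0.15 (SE 0.126, 95% interval -0.41 to 0.11, edgeR adjusted p = 0.645).

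The difference between the cold responses of the genotypes was tested as an interaction. It passed for 0 of 10 members in the edgeR test, with 0 at an unadjusted p under 0.05, and for 200 of all genes (1.16%), with 2804 at the unadjusted p. The 200 moved to between 49 (without KO30 mouse 8) and 371 (without WT30 mouse 7), and to 488 in DESeq2. The fall of Cirbp was smaller in KO mice by 0.87 on the log2 scale (SE 0.422, 95% interval -0.002 to 1.73, edgeR adjusted p = 0.31), an interval that includes 0. Without the 3 mice it was smaller by 0.27 (SE 0.318, edgeR adjusted p = 0.693). For Rbm3 the difference of the responses was 0.09 (95% interval -0.22 to 0.39), and for Tra2a -0.19 (95% interval -0.54 to 0.16). These comparisons share their mice with the cold comparisons above.

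**Figure D4:**
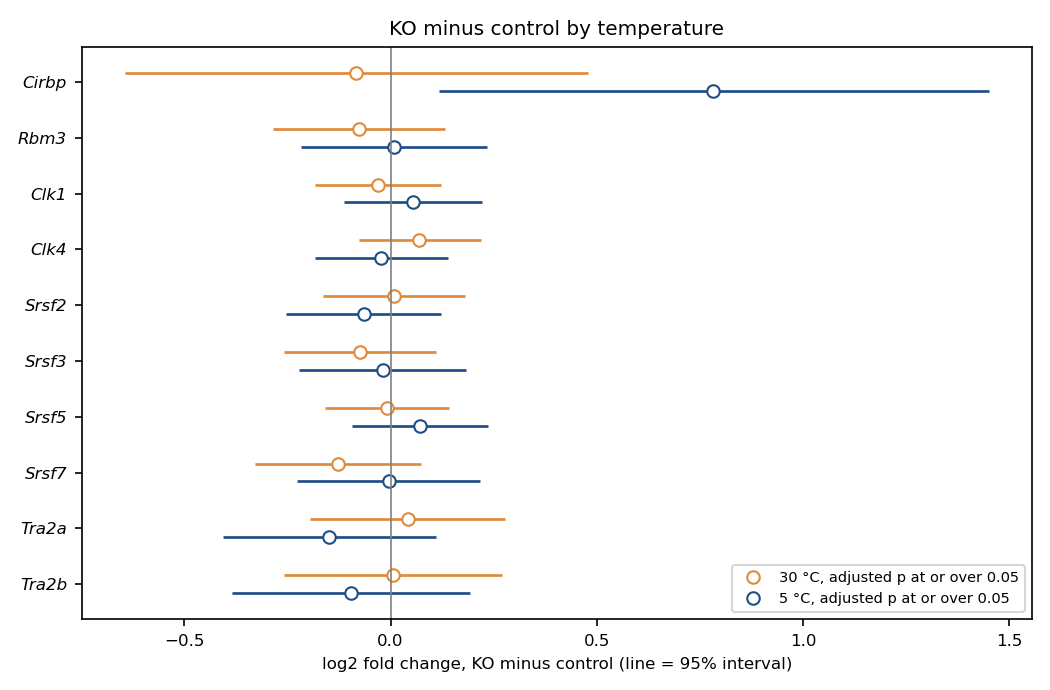
Log2 difference between the genotypes (horizontal axis, KO minus control) of each gene at thermoneutrality (orange, upper) and at 5 °C (blue, lower), with 95% intervals. No point is filled, as none had an adjusted p under 0.05; Cirbp at 5 °C lies at 0.78 with an interval of 0.12 to 1.45.

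Levels between genes were compared per kilobase of annotated exon, a length that includes retained introns. In WT30 Srsf5 was the highest member, with a median of 44.6 CPM per kilobase and a range clear of the next gene, and Srsf2 followed at 23.7. Cirbp at 5.51 and Tra2b at 4.59 stood last, and from Clk4 to Cirbp each gene overlapped its neighbour in the order. In WT5 Srsf5 (37.5) and Srsf2 (26.4) kept the first places without overlap. Rbm3 moved from the seventh place to the fifth, at 11.6, and Cirbp took the last at 1.71, below Tra2b at 5.19 without overlap. In KO5 Cirbp was last too, at 2.01, but its range of 1.63 to 7.99 overlapped that of Tra2b.

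Some pairs of members also varied together between mice of the same group, while others did not. The deviations of log2 CPM from the group means over the 26 mice correlated most for Srsf2 with Srsf7 (Pearson r = 0.81), Srsf3 with Tra2b (0.81) and Srsf7 with Tra2b (0.76). Cirbp went with Srsf5 (0.74) and against Srsf2 (-0.56) and Srsf7 (-0.49). Between Cirbp and Rbm3 the value was 0.12. Clk4 was at 0.243 with Srsf7 and 0.0054 with Srsf2. Over the 23 mice left without those that stood apart, Srsf2 with Srsf7 was at 0.83, Srsf3 with Tra2b at 0.77, Srsf7 with Tra2b at 0.69, and Cirbp was at 0.78 with Srsf5, -0.41 with Srsf2, -0.36 with Srsf7 and -0.05 with Rbm3. Clk4 was then at -0.645 with Srsf7 and -0.524 with Srsf2. Tra2a with Tra2b went from 0.682 over the 26 mice to 0.397. These values describe libraries that share depth and tissue makeup, and no test is attached to them. Over 12872 genes with a mean of at least 1 CPM, the genes most like Cirbp by this measure were Zc3h6 (r = 0.90), Mbtps2 (0.88) and Cep83os (0.84). Those most like Rbm3 were Prkx (0.81), Nom1 (0.79) and Cfl1 (0.79). For Clk1 they were Kdm3a (0.84), 6820402A03Rik (0.79) and Zbtb10 (0.78), and for Tra2b they were Ube2d3 (0.90), Ppp1r15b (0.88) and Tsc22d2 (0.87). Over the 23 mice these 12 correlations ran from 0.59 (Clk1 with Zbtb10) to 0.88 (Tra2b with Ube2d3), and Cirbp was at 0.84 with Zc3h6, 0.82 with Mbtps2 and 0.73 with Cep83os. After cold exposure of control mice, Zc3h6 fell by 3.76 on the log2 scale (SE 0.364, edgeR adjusted p = 9.06e-10) and Cep83os fell by 2.94 (SE 0.291, edgeR adjusted p = 1.38e-09). For Mbtps2 the value was 0.16 (SE 0.11, edgeR adjusted p = 0.219).

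Other genes of the same machinery were read from the same fit. Of 6 tested further SR proteins, 5 rose and 0 fell in control mice in the cold, and 4 rose and 0 fell in KO mice; the median log2 fold change in controls was 0.28. Of all genes, 31.6% were called higher and 33.4% lower in controls, and 33.7% and 34.9% in KO mice. Srsf6 rose most, from 61.95 to 69.3 CPM in WT30 to 116 to 126 CPM in WT5, by 0.92 on the log2 scale (SE 0.0619, edgeR adjusted p = 9.03e-13). In KO mice Srsf6 rose by 0.93 (SE 0.0575, edgeR adjusted p = 1.32e-13).

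Of 7 further kinases of SR proteins, 5 rose and 1 fell in control mice, and 4 rose and 1 fell in KO mice (median in controls, 0.40), against 31.6% and 33.4% of all genes in controls and 33.7% and 34.9% in KO mice. Dyrk1a, a kinase of splicing factors and other substrates, rose by 0.93 (SE 0.0594, edgeR adjusted p = 3.06e-13), from 37.9 to 42.1 CPM in WT30 to 69.1 to 82.1 CPM in WT5. Srpk2, a cytoplasmic SR protein kinase, fell by 0.20 (SE 0.0648, edgeR adjusted p = 0.00991).

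Of 7 tested relatives of Cirbp and Rbm3 and cold shock domain proteins, 4 rose and 1 fell in control mice, and 6 rose and 1 fell in KO mice (median in controls, 0.38), beside 31.6% and 33.4% of all genes in controls and 33.7% and 34.9% in KO mice. Ybx3, a cold shock domain protein that binds mRNA, rose by 0.60 (SE 0.104, edgeR adjusted p = 1.28e-05). Carhsp1, a small cold shock domain protein, fell by 0.82 (SE 0.0885, edgeR adjusted p = 6.82e-09).

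Of 29 hnRNP and related RNA-binding proteins, 21 rose and 3 fell in control mice, and 20 rose and 2 fell in KO mice (median in controls, 0.50). Of all genes, 31.6% rose and 33.4% fell in controls, and 33.7% and 34.9% in KO mice. Hnrnph2, which binds runs of G, rose by 1.34 (SE 0.0552, edgeR adjusted p = 7.06e-17), from 27.8 to 33.6 CPM in WT30 to 75.9 to 84.0 CPM in WT5. Its relative Hnrnph3 fell by 0.44 (SE 0.108, edgeR adjusted p = 0.000923).

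Of 29 other spliceosome-associated regulators, 20 rose and 2 fell in control mice, and 16 rose and 5 fell in KO mice (median in controls, 0.27), beside 31.6% and 33.4% of all genes in controls and 33.7% and 34.9% in KO mice. U2af2, the subunit that reads the polypyrimidine tract before a 3′ splice site, rose by 0.86 (SE 0.0744, edgeR adjusted p = 9.76e-11). Luc7l2, a factor of the U1 particle, fell by 0.64 (SE 0.0893, edgeR adjusted p = 5.65e-07). The difference of the cold responses passed for 2 genes of this list, both with a lower response in KO mice, Sfswap at -0.33 (SE 0.082, edgeR adjusted p = 0.0452) and Rbm6 at -0.26 (SE 0.0617, edgeR adjusted p = 0.0391). The call of Sfswap was lost in 25 of 33 alternatives and that of Rbm6 in 21 of 33.

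Of 14 nonsense-mediated decay factors, 11 rose and 1 fell in control mice, and 9 rose and 2 fell in KO mice (median in controls, 0.47), where all genes had 31.6% and 33.4% in controls and 33.7% and 34.9% in KO mice. Smg5, which recruits decay enzymes, rose by 0.87 (SE 0.118, edgeR adjusted p = 3.46e-07). Smg6, the endonuclease of the pathway, fell by 0.25 (SE 0.0552, edgeR adjusted p = 0.000269). For Smg1, the kinase of the pathway, the difference of the responses (KO minus control) was -0.42 (SE 0.0907, edgeR adjusted p = 0.0269). That call was lost in 5 of 33 alternatives, among them those without WT5 mouse 17, 19 or 21 (highest edgeR adjusted p, 0.0775).

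Of 7 nuclear-retained RNAs, 3 rose and 2 fell in control mice, and 2 rose and 4 fell in KO mice (medians, 0.08 and -0.473). Of all genes, 31.6% rose and 33.4% fell in controls (65% in either direction), and the control count lay near that. In KO mice 33.7% of all genes rose and 34.9% fell (68.6% in either direction). Neat1, the scaffold RNA of paraspeckles, was at 2265 to 5405 CPM in WT5 and at 1262 to 2117 CPM in KO5. It rose by 2.45 in controls (SE 0.191, edgeR adjusted p = 1.49e-11) and by 0.84 in KO mice (SE 0.174, edgeR adjusted p = 0.000134). The difference between these responses was -1.62 (SE 0.256, edgeR adjusted p = 0.00268), and it passed in all 33 alternatives. Part of it lies at thermoneutrality, where Neat1 had 784 to 1234 CPM in KO30 and 479 to 1016 CPM in WT30, a log2 difference of 0.62 (SE 0.174, edgeR adjusted p = 0.27). In the cold the difference between the genotypes was -0.99 (SE 0.188, edgeR adjusted p = 0.0206). The latter call was lost in 6 of 34 alternatives (highest edgeR adjusted p, 0.123), among them those without WT5 mouse 17, 19 or 21 or KO5 mouse 27. Kcnq1ot1, an imprinted nuclear RNA, had a difference of responses of -0.48 (SE 0.11, edgeR adjusted p = 0.0327), lost in 10 of 33 alternatives (highest edgeR adjusted p, 0.0751), of which 9 left out WT30 mouse 2 or 6, WT5 mouse 16, 17 or 21, or KO30 mouse 8, 10, 11 or 12. Snhg11 fell by 2.12 in controls (SE 0.151, edgeR adjusted p = 2.57e-12). Apart from Neat1, no gene of the 7 lists passed the test between the genotypes at either temperature.

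**Figure D5:**
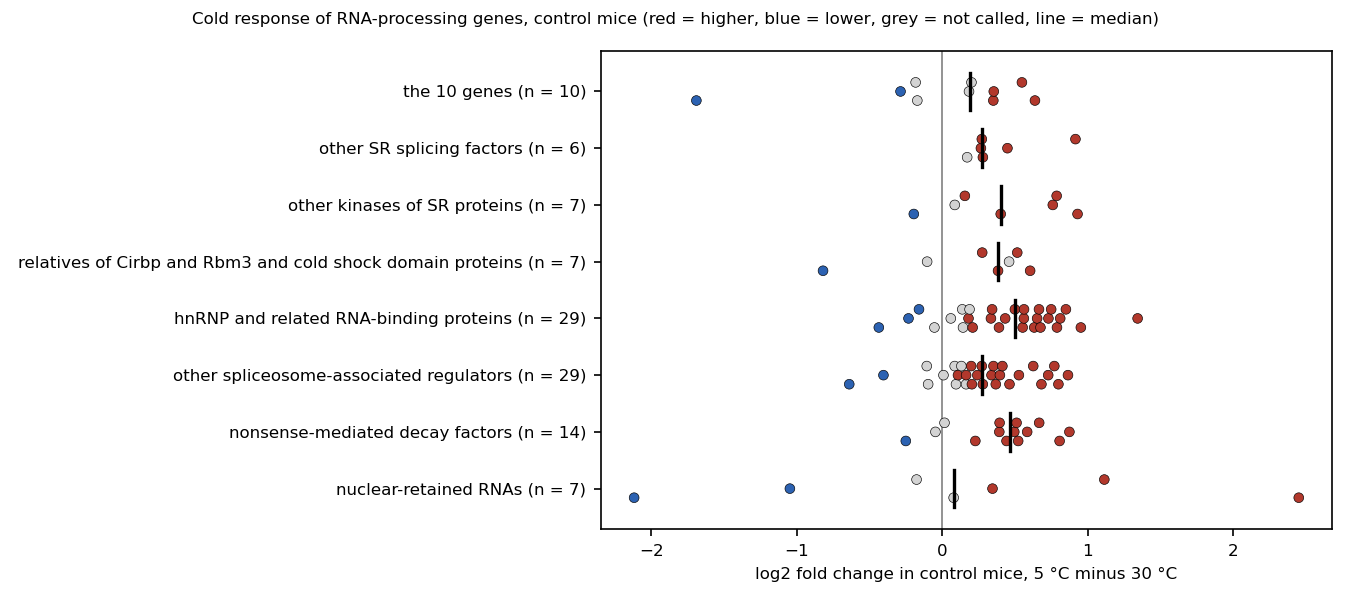
Log2 fold change in control mice (horizontal axis, 5 °C minus thermoneutrality) of the 10 genes and of 7 lists of RNA-processing genes; each point is a gene, red where it rose, blue where it fell and grey where it did not pass the test, and the black line is the median. Medians of the lists lie between 0.08 and 0.50, and Cirbp is the lowest point of the top row at -1.69.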

How the data were processed

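The authors sequenced 100-base single-end reads, aligned them to mm10 (STAR 2.5.2b), assigned reads to the genes of Gencode release 13 (featureCounts 1.5.2) and deposited the raw read counts of 26 mice, unscaled, in a single table. Libraries were made from ribosome-depleted total RNA with a stranded kit. The strand setting of the counting is not given in the sources used here. Identifiers were matched without their version to Gencode release 21 (GRCm38), which named 50462 of 50686 genes.

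Counts were filtered with filterByExpr by group, scaled by TMM and fitted over all 26 mice with 1 term per group in edgeR 4.0.16 (R 4.3.3, limma 3.58.1), using the legacy quasi-likelihood F test. The p-values were adjusted by Benjamini-Hochberg over 17286 genes, with a threshold of 0.05. Log2 CPM used a prior count of 2. Intervals are 95% intervals from the fit. CPM per kilobase used the union of annotated exons. On simulated data with 200 genes changed by 1 on the log2 scale, 175 were found in the comparison of the genotypes at 5 °C (16869 genes) and 10 others were called. Smaller changes were not simulated. The largest difference of a member in that comparison was 0.78 (Cirbp), so the simulation does not measure how well differences of the members would be found.

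DESeq2 1.42.0, other scalings and filters, a fit on only the groups compared, and the omission of each mouse were alternatives. The 3 mice with a TMM factor below 0.8 or above 1.25 were left out in an alternative chosen after seeing the data, as were the alternatives for list genes called between genotypes. No 2 mice of a group had counts that agreed within sampling noise (73 pairs, lowest chi-square per gene 4.83). All mice carry different numbers. The members and lists were chosen with earlier results of these data known. All 10 members are named, with the highest and lowest called gene of each list (mean of at least 1 CPM) for cold in controls, and the 3 genes whose deviations were most like those of Cirbp, Rbm3, Clk1 and Tra2b. Genes with a differing cold response in the lists, the overlapping neighbours, Phospho2 and Rbm3-ps were named after their values were seen.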

Additional observations from a re-analysis of the deposited data

Results flagged for a closer look

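Each of the 10 genes was examined in each of the 4 groups for a mouse far from the others by Dixon's test, 40 groups in all, and 3 were marked. Chance marks about 1 group in 20. Clk4 was at 44.133 CPM in control mouse 7 at thermoneutrality, where the next mouse had 57.79 CPM. Srsf5 was at 145.55 CPM in KO mouse 10 at thermoneutrality, where the next had 169.79 CPM. Tra2b was at 55.84 CPM in KO mouse 27 at 5 °C, where the next had 46.372 CPM.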

How the results depend on the processing

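The calls of Cirbp, Rbm3 and Clk4 in control mice, and of Cirbp and Rbm3 in KO mice, held under every alternative run, and Clk4 in KO mice under all but scaling by library size alone (0.138). The other calls, those of Srsf7, Tra2a and Tra2b in controls and of Srsf3 in KO mice, were each lost in some alternatives. Members not called had edgeR adjusted p values from 0.0513 (Clk1) to 0.103 (Srsf3) in controls. In KO mice these ran from 0.0897 (Tra2b) to 0.263 (Srsf5). Called higher in the control mice were 4 members, but 2 by library size alone and 2 in a fit on only the groups compared. The number called higher was 3 to 6 on leaving out a mouse at a time. Called lower were 2, but 4 by library size alone, 4 with at least 10 counts in every mouse, and 4 without the 3 mice that stood apart. Leaving out a mouse at a time gave 1 to 4: 1 without WT5 mouse 16, and 4 without WT30 mouse 7, WT5 mouse 18, KO5 mouse 24 or 25, or KO30 mouse 8, 9, 12, 13 or 14. In KO mice 3 were called higher, but 1 by library size alone, 5 without the 3 mice, and 2 to 4 on leaving out a mouse at a time. Called lower was 1, but 4 by library size alone, 3 with at least 10 counts in every mouse, 2 in a fit on only the groups compared, and 1 to 2 on leaving out a mouse at a time (2 without WT30 mouse 7 or KO30 mouse 12 or 13). On leaving out a mouse at a time, Clk1 in controls passed the threshold in 12 of 26 fits (lowest value, -0.265 without WT30 mouse 7) and Srsf5 in 9 (-0.235 without that mouse). Tra2b in controls lost its call in 5, without WT30 mouse 4, 5 or 7 or WT5 mouse 18 or 21 (0.233 and edgeR adjusted p = 0.0849 without WT30 mouse 7). Srsf7 in controls lost it without WT5 mouse 16 (edgeR adjusted p = 0.0643). Srsf3 in KO mice lost it in 5, without KO30 mouse 9, 12, 13 or 14 or KO5 mouse 23 (0.173 and edgeR adjusted p = 0.094 without mouse 13).

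Library size alone shifted the median log2 change of all genes to -0.14 in control and -0.344 in KO mice in the cold, and to 0.126 between the genotypes at thermoneutrality. In the cold in KO mice it reversed Srsf2 (-0.175), Srsf3 (-0.071), Tra2a (-0.146) and Tra2b (-0.0524), all of them above that median. Members newly called lower by this scaling in KO mice lay at -0.0709 (Clk1), -0.0834 (Srsf5) and -0.121 (Srsf7) relative to the median. In controls they lay at -0.153 (Clk1) and -0.15 (Srsf5). Between the genotypes at thermoneutrality library size alone gave 0.0922 for Cirbp, 0.0731 for Rbm3 and 0.0292 for Srsf7, all below the median. For Rbm3 it gave -0.0484 at 5 °C and -0.122 for the difference of responses. At 5 °C Rbm3 was at -0.000881 with at least 10 counts in every mouse, at -0.0299 without the 3 mice, and at -0.0494 to 0.0707 on leaving out a mouse at a time. Cirbp at thermoneutrality ran from -0.195 to 0.0152 on leaving out a mouse at a time. Of the 20 differences between genotypes not given singly, 54 of 673 alternative values changed sign and 0 passed the threshold. The cause of these changes was not tested. No paired analysis was possible because no mice of different groups share a number. Over all genes, the 14 calls between genotypes at thermoneutrality became 48 in DESeq2, 34 by library size alone, 9 with no filter and 121 without the 3 mice. The 24 calls at 5 °C became 197, 5 and 15 in the first 3 of these, 45 with at least 10 counts in every mouse and 9 in a fit on only the groups compared. The 200 calls for the difference of responses became 488 in DESeq2 and 27 with no filter.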
